A study of Mus musculus with 60 samples.

Results

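Peaks of H4K8ac and H3K27me3 were examined at 10 genes that mark microglia or endothelial cells, in nuclei isolated from the mouse hippocampus. The microglial genes were Cx3cr1, Csf1r, Aif1, P2ry12, Tmem119 and Spi1, and the endothelial genes were Cldn5, Pecam1, Tek and Cdh5. They were chosen as known markers of cells that the isolation was not designed to capture. A peak belonged to a gene if the authors' annotation gave it that gene's symbol, and 96 of 256375 peaks in 12 lists did so. The 10 genes stand among 21911 protein-coding genes of the annotation used here.

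The mice were male Emx1-NuTRAP animals, the offspring of Emx1-Cre females and NuTRAP males, which tag the nuclei and ribosomes of cells with a history of Emx1 expression. Emx1-Cre acts mainly in excitatory neurons of the forebrain and their progenitors, and can also act in some astrocytes. Exercised mice had a running wheel between postnatal days 21 and 41, and sedentary mice lived without a wheel over the same days. Tagged nuclei were taken from whole bilateral hippocampus together with RNA (SIT), or from the left or the right hippocampus without RNA (left separate and right separate), and these isolations are called arms. All groups carried both transgenes. The labels hold 60 samples in 18 groups, of which 20 samples are IgG controls without a list of their own. Each of the 12 lists stands for a mark, condition and arm, for which the labels give 4 samples in SIT and 3 in each separate arm. How many libraries or mice stand behind each list is not known here, and the study names fewer mice per condition for its SIT peak comparisons than the labels hold samples. Its methods exclude 4 exercised H4K8ac libraries, 3 of the separate isolations and 1 of SIT, for a high false discovery rate. Whether the deposited lists omit them is not stated, nor is the hemisphere of the 3, so the exercised H4K8ac lists may rest on fewer libraries than the labels give.

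Microglia are the resident macrophages of the brain and arise outside the neural lineage, and endothelial cells line its vessels and form the blood-brain barrier. Neither is derived from Emx1-expressing progenitors. H4K8ac is an acetylation of histone H4 found at active promoters and enhancers. H3K27me3 is deposited by the Polycomb repressive complex PRC2, often over CpG-rich start sites of genes that belong to other lineages. The lists hold positions of peaks with no height, no read count and no sample of origin, so the depth behind them is not known here, there are no replicate values, and the values carry no SD within a list. A longer list can name more genes. The lists held between 12168 and 38136 H4K8ac peaks and between 9899 and 25693 H3K27me3 peaks, and which condition had the longer list differed between arms.

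As a reference for the tagged cell type, 10 neuronal genes were described. Of these, 9 had an H4K8ac peak in at least 1 list, where 52% of all genes did, and 4 in 6 of 6 lists, where 12.4% did, Snap25 (a synaptic vesicle fusion protein) among them. Thy1, a surface protein of neurons, was the 1 gene of the 10 with H3K27me3 (28.1% of all genes in at least 1 list), in 6 of 6 lists, but its start site lay in none of them. The lowest H4K8ac count of the neuronal genes in a list was 4, in sedentary SIT, beside 32.8% of all genes. Of 20 other microglial and 20 other endothelial genes, 14 and 13 had H4K8ac in at least 1 list. In 6 of 6 lists, 1 and 2 of them did. These counts do not show which cells the nuclei came from. Whether nuclei of microglia or endothelial cells contributed to the lists was not tested.

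The marker genes fell into 3 groups by mark, each of which held genes of both cell types. Cldn5 and Tmem119 had H3K27me3 in 6 of 6 lists and no H4K8ac peak, and Cx3cr1 had H3K27me3 in 4 lists and no H4K8ac peak. P2ry12 and Pecam1 had H4K8ac in 6 of 6 lists and no H3K27me3 peak, and Csf1r and Aif1 had H4K8ac in 2 and 1 lists. Tek had H3K27me3 in 2 lists. Cdh5 and Spi1 had both marks, Cdh5 with H4K8ac in 5 lists and H3K27me3 in 4, Spi1 with H4K8ac in 4 and H3K27me3 in 1.

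The sequences under the most recurrent regions are given here with their CG pairs, since CpG-rich start sites are a known place of Polycomb binding. No difference between the marks was tested with them. The promoters are the RefSeq windows from 250 bases before to 50 bases after the start (GRCm38.p6). The other sequences are the central 300 bases of the stretch that peaks of all 6 lists of the mark had in common (GRCm38). All are written along the strand of the gene, with CG pairs in capitals.
Cldn5 promoter, chr16:18776597-18776896, plus strand, inside an H3K27me3 peak in 6 of 6 lists: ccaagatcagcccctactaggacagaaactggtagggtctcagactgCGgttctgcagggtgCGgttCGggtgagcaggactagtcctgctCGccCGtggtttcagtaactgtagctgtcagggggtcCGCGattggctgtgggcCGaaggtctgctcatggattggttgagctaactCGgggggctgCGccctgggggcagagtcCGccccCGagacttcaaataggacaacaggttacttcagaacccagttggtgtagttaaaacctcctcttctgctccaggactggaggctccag
Cldn5 common H3K27me3 stretch, chr16:18777478-18777777, plus strand, inside the gene: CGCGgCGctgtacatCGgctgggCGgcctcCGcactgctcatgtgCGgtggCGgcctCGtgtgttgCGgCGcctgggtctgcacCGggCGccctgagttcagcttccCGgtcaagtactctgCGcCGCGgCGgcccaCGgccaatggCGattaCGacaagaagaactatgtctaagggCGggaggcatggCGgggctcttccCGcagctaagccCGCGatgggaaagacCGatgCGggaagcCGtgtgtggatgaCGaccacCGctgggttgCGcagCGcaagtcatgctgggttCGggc
Tmem119 common H3K27me3 stretch, chr5:113797421-113797720, minus strand, inside the gene: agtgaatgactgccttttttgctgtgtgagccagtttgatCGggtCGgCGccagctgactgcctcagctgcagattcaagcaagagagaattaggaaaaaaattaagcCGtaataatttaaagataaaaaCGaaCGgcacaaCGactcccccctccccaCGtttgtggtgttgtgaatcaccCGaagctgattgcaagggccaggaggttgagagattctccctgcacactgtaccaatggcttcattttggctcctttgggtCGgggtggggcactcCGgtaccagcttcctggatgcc
Cx3cr1 promoter, chr9:120068247-120068546, minus strand, overlapped by an H3K27me3 peak in 4 of 6 lists: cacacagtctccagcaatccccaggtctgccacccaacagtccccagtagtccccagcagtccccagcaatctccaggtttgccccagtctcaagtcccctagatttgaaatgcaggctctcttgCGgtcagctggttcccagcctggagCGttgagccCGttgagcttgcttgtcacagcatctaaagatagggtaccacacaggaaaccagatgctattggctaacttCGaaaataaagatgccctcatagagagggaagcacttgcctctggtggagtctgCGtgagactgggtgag
Pecam1 common H4K8ac stretch, chr11:106737071-106737370, minus strand, in intron 1: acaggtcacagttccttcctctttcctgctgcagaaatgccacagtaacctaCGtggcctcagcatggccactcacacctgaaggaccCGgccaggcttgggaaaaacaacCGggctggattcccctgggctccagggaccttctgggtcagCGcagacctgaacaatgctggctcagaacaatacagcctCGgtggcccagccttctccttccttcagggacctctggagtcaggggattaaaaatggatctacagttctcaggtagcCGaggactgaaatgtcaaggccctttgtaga
P2ry12 common H4K8ac stretch, chr3:59230940-59231239, minus strand, inside P2ry12 and Med12l: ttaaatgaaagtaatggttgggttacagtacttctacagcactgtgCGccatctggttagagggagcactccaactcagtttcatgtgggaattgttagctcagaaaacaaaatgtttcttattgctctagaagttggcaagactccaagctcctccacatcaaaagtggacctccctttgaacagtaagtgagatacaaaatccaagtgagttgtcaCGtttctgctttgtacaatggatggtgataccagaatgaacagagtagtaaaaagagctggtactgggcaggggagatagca

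The Cldn5 stretch had 34 CG pairs and 67.0% GC, and 99.6% of the 7676 common H3K27me3 stretches of at least 300 bases had no more CG pairs in their centre (median 3). The Tmem119 stretch had 11 CG pairs, at the percentile of 93.3. Among the 3412 common H4K8ac stretches (median 4), the Pecam1 centre had 6 CG pairs, at the percentile of 76.0, and the P2ry12 centre had 2, at 32.8. At promoters, where the median over 32851 RefSeq windows was 7, Cldn5 had 12 CG pairs, Cx3cr1 5, P2ry12 4, Tek 3 and Aif1 1. The Cx3cr1 promoter therefore carried H3K27me3 with fewer CG pairs than the median promoter. RefSeq windows were matched for 5 of the 10 genes, and Csf1r, Tmem119, Spi1, Pecam1 and Cdh5 had none in the table.

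The letters GAGGAAGT, a binding sequence of PU.1, the factor that Spi1 encodes, were searched on both strands. None of the 5 promoters and none of the 4 common stretches held them, against 3.20% of all promoters, 1.67% of H4K8ac centres and 1.94% of H3K27me3 centres. The shorter GGAA, the core that ETS factors share and a part of the longer word, was in 4 of 5 promoters, against 96.0% of all promoters, and was not in that of Cldn5.

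Counting every gene and list, 24 of 60 pairs of a member and an H4K8ac list held an assigned peak, or 40.0%, where the mean over lists for all protein-coding genes was 31.1%. For H3K27me3 the count was 23 of 60, or 38.3%, where the mean for all genes was 18.8%. Both counts depend on the peaks accepted: with promoter peaks alone they were 10 and 16 of 60, with at least 2 peaks 15 and 4, and with the start site inside a peak 0 and 14. The shares of all genes stated here apply to any assigned peak and were not recomputed under those rules. In the exercised SIT H4K8ac list 5 of 10 members were listed beside 41.2% of all genes, and in the sedentary one 4 beside 32.8%. The left separate lists held 2 (exercised, 19.6% of all genes) and 4 (sedentary, 39.4%). The right separate lists held 4 (exercised, 22.1%) and 5 (sedentary, 31.6%). These counts stood within 2 genes of what the same share of 10 would give, so the H4K8ac counts were close to the background.

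The H3K27me3 lists named 5 members in exercised SIT beside 24.6% of all genes and 4 in sedentary SIT beside 14.5%. The left separate lists named 4 (exercised, 19.8%) and 2 (sedentary, 17.7%), and the right separate lists 2 (exercised, 13.3%) and 6 (sedentary, 23%). The share of members was above that of all genes in each of the 6 lists, as it also was in each of the 6 H4K8ac lists. In exercised right separate and sedentary left separate the members were Cldn5 and Tmem119 alone. These counts were close to the background, at 20% beside 13.3% and 17.7%.

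**Figure D1:**
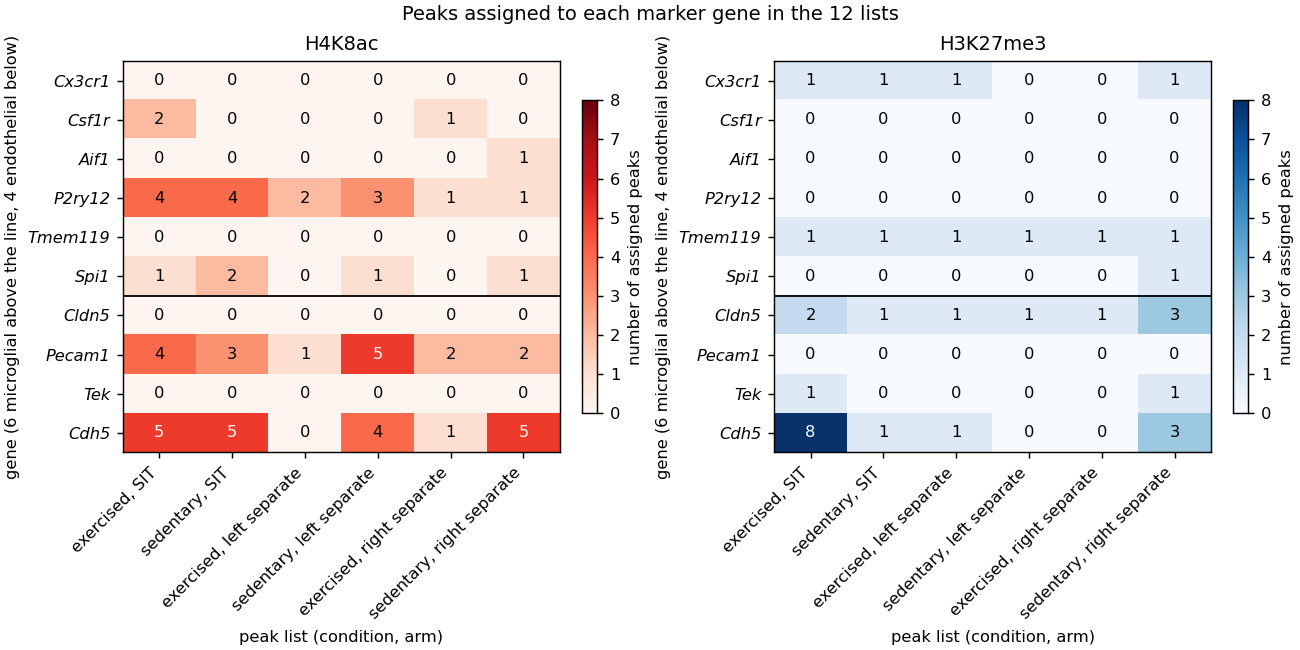
Number of peaks assigned to each of the 10 genes (rows) in each list (columns), for H4K8ac on the left and H3K27me3 on the right, with the number printed in each cell and shown by colour. The rows of P2ry12 and Pecam1 are filled in all 6 H4K8ac lists and empty for H3K27me3, and those of Tmem119 and Cldn5 show the reverse.

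An H4K8ac peak was assigned in 6 of 6 lists to 2 of 10 members, where 12.4% of all genes had this, and in at least 1 list to 6 of 10, where 52% did. For H3K27me3 the counts were 2 of 10 (10.7% of all genes) and 6 of 10 (28.1%). At least 1 list of each mark held 2 of 10 members, Spi1 and Cdh5, beside 15.2% of all genes. At no member did an assigned H4K8ac peak overlap H3K27me3 in the matching list of the other mark. How often this holds over all genes was not computed.

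The start site, taken as the 5′ end of the annotated gene, lay inside an H3K27me3 peak for Cldn5 in 6 lists, for Tmem119 in 4 and for Cx3cr1 in 4. These are 3 of 10 members in at least 1 list, where 12.2% of all genes had this, and 1 of 10 in 6 of 6 lists, where 4.24% did. At this 5′ end no member had an H4K8ac peak in any list, while 26.4% of all genes had one there in at least 1 list and 1.07% in all 6. Starts of other annotated transcripts did lie inside H4K8ac peaks, 5 of 6 for Csf1r in exercised SIT and 2 of 5 for P2ry12 in exercised SIT and exercised left separate. Counted by any transcript start, chosen after seeing the data, the pairs of a member and an H4K8ac list thus went from 0 to 3, and the shares of all genes were not computed in that way.

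Cldn5 encodes claudin-5, the tight junction protein that seals the brain endothelium. The gene (ENSMUSG00000041378, chr16:18776847-18778262, plus strand) is 1416 bp long, and each H3K27me3 list had a single peak that covered it whole. The peak was 6616 bp wide in exercised and 4816 bp in sedentary SIT, 5236 and 3117 bp in left separate, and 4838 and 5769 bp in right separate. It was wider in the exercised list in 2 of 3 arms. Peaks started between 777 and 2860 bp upstream of the start site and ended between 2339 and 3755 bp downstream of it. Their midpoints had an SD of 182 bp over the 6 lists. The widths fell between the percentiles of 45.1 and 81.2 of their own lists, so they were not among the widest domains.

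Farther upstream, 3 more intergenic H3K27me3 peaks were assigned to Cldn5, each found in 1 list. They lay 29.0 kb from the start in exercised SIT and 23.0 and 41.6 kb away in sedentary right separate. The closest H4K8ac peak to the Cldn5 start site was between 59.3 and 327.7 kb away, depending on the list.

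Tmem119 encodes a membrane protein used to tell microglia from other macrophages. The gene (ENSMUSG00000054675, chr5:113793729-113800516, minus strand) is 6788 bp long and had 1 H3K27me3 peak in each list. Widths were 6414 and 4972 bp in exercised and sedentary SIT, 4611 and 5461 bp in left separate, and 5126 and 6828 bp in right separate. The exercised peak was wider in 1 of 3 arms. All 6 peaks had 2974 bp inside the gene in common.

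Their upstream edge varied more than that of Cldn5. In exercised left separate and sedentary SIT the peak began 1266 and 1459 bp downstream of the start site, and in the other 4 lists it reached 314 to 704 bp upstream of it. The closest H4K8ac peak was between 18.7 and 69.6 kb from the start.

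Cx3cr1 encodes the fractalkine receptor, through which microglia receive a signal from neurons. It had an H3K27me3 peak of 3715 bp in exercised SIT, 2768 bp in sedentary SIT, 2407 bp in exercised left separate and 3961 bp in sedentary right separate. Sedentary left separate and exercised right separate had none, and in those lists the closest H3K27me3 peak to the peak seen in the other condition was 333.8 and 224.5 kb away. All 4 peaks covered every annotated start of the gene, and shared 2247 bp. An antisense gene, Gm33858, overlaps this region, and CUT&RUN has no strand that could tell which gene a peak belongs to.

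The annotated span of Cx3cr1 (ENSMUSG00000052336, chr9:119901616-120069879, minus strand) reaches over several other genes. H4K8ac peaks inside that span, 5 in 4 lists, were assigned to Xirp1, which encodes an actin-binding protein of muscle, and none to Cx3cr1. From the Cx3cr1 start the closest H4K8ac peak in any list was 55.6 kb away.

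**Figure D2:**
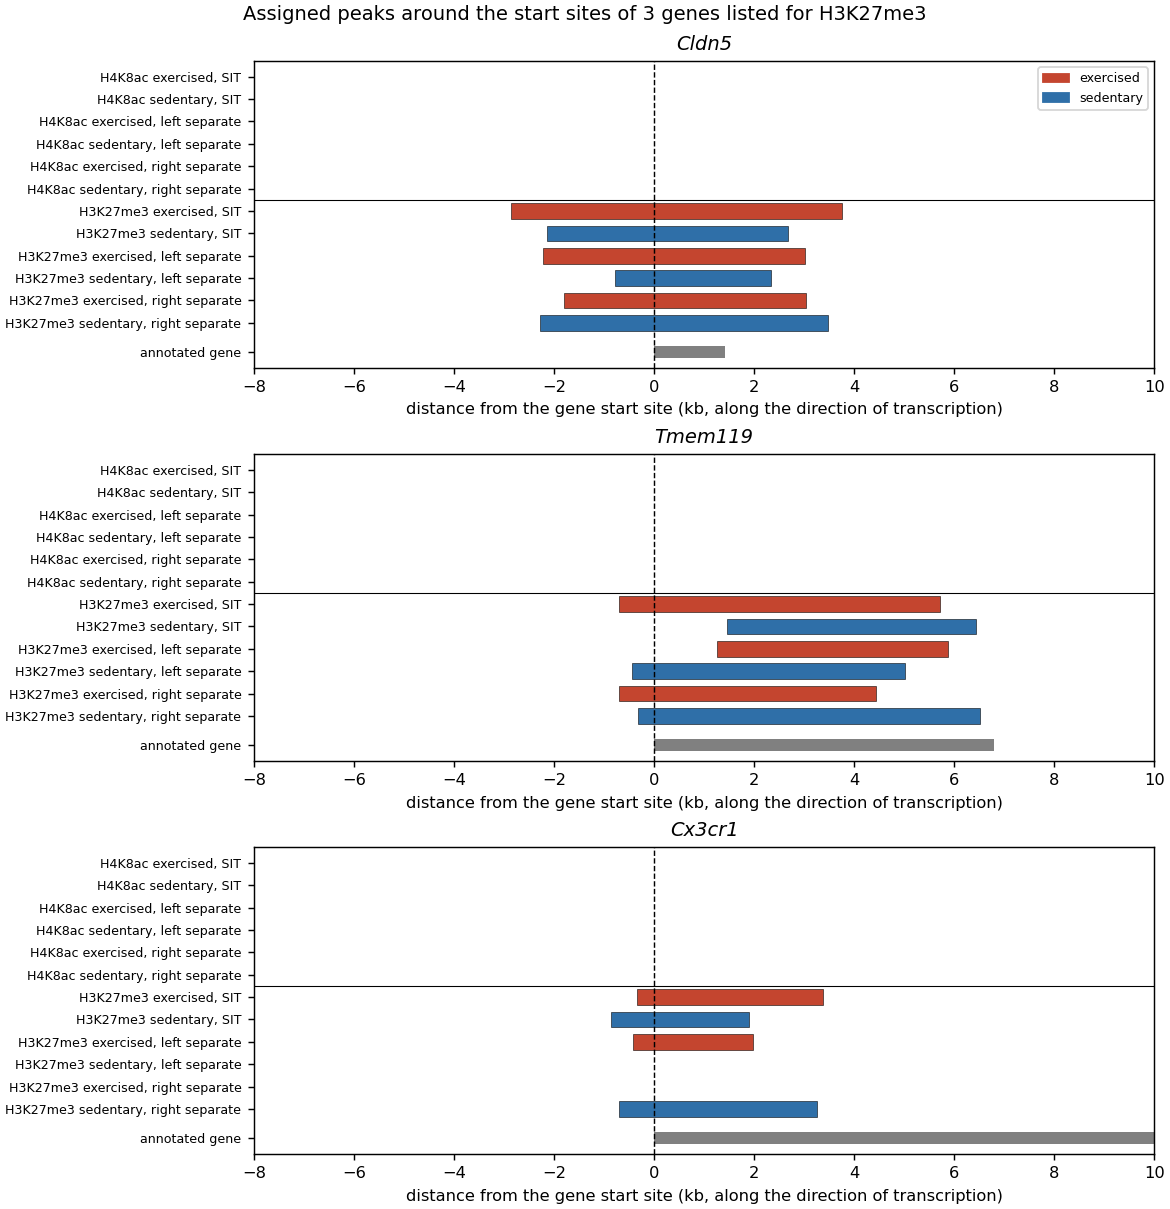
Assigned peaks as bars along the distance from the start site in kb (0 marks the start, positive values lie downstream) for Cldn5, Tmem119 and Cx3cr1, with 1 row per list, colours for condition and the annotated gene in grey (cut at the right edge for Cx3cr1). Cldn5 bars cross the start in all 6 H3K27me3 rows, Tmem119 and Cx3cr1 bars in 4 each, and the H4K8ac rows are empty.

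Tek encodes TIE2, the receptor of the angiopoietins. Its H3K27me3 peaks were at separate places, 1401 bp wide in intron 1 in exercised SIT and 3512 bp wide, 15.1 kb upstream, in sedentary right separate. Neither reached the start site, and the narrower one was at the percentile of 3.64 for width in its list. No H4K8ac peak lay within 56.8 kb of the Tek start in any list.

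P2ry12 encodes the ADP receptor that guides microglial processes. It had 15 H4K8ac peaks, with 4 each in exercised and sedentary SIT, 2 in exercised and 3 in sedentary left separate, and 1 in each right separate list. A single region about 32.5 kb downstream of the start (chr3:59228206-59232492) was present in 6 of 6 lists. The bases that all lists shared there were 422 in number. Of the 15 peaks, 13 were classed as promoter by the authors' annotation, but most of these were near starts of shorter P2ry12 transcripts inside the gene.

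Nearer to the 5′ end of the gene, a region centred 2.05 kb downstream of the start had H4K8ac in exercised SIT (3048 bp), sedentary SIT (1756 bp) and sedentary left separate (3127 bp). Sedentary left separate also had a peak of 1399 bp that ended 124 bp upstream of the start. Starts of shorter transcripts lay inside a peak in exercised SIT and exercised left separate. P2ry12 (ENSMUSG00000036353, chr3:59216272-59262871, minus strand) lies wholly within Med12l, a Mediator subunit gene on the plus strand (chr3:59005825-59318682), and P2ry13, a related receptor gene, lies beside it.

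Peaks in the P2ry12 window could therefore belong to either gene. In 4 lists, 10 more H4K8ac peaks within the gene or 3 kb of it were assigned to Med12l or P2ry13, and Med12l itself had between 1 and 6 H4K8ac peaks in each list. The exercised left separate peak at the common region was classed as exon 17 of 44, which is an exon of Med12l. The closest H3K27me3 peak to the P2ry12 start in any list was 1131 kb away.

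Pecam1 encodes CD31, an adhesion molecule of endothelial cells and some leukocytes. It had 17 H4K8ac peaks, and the region in intron 1 (chr11:106735675-106738639), centred 13.5 kb downstream of the start, was present in 6 of 6 lists. The width there was 2858 bp in exercised and 2480 bp in sedentary SIT, 2539 and 2283 bp in left separate, and 1879 and 2435 bp in right separate. The midpoints had an SD of 170 bp, and the widths were between the percentiles of 70.9 and 90.3 of their lists. No other annotated gene overlapped the region.

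Another region of Pecam1 (chr11:106673678-106676288), centred 75.6 kb downstream of the start, was present in 5 lists and absent from exercised left separate, the shortest H4K8ac list. The other Pecam1 regions were found in 1 or 2 lists. The peaks were intronic in 16 cases and exonic in 1, and the closest to the start site was 7.97 kb away. Pecam1 (ENSMUSG00000020717, chr11:106654217-106750628, minus strand) had its closest H3K27me3 peak 739.6 kb from its start.

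**Figure D3:**
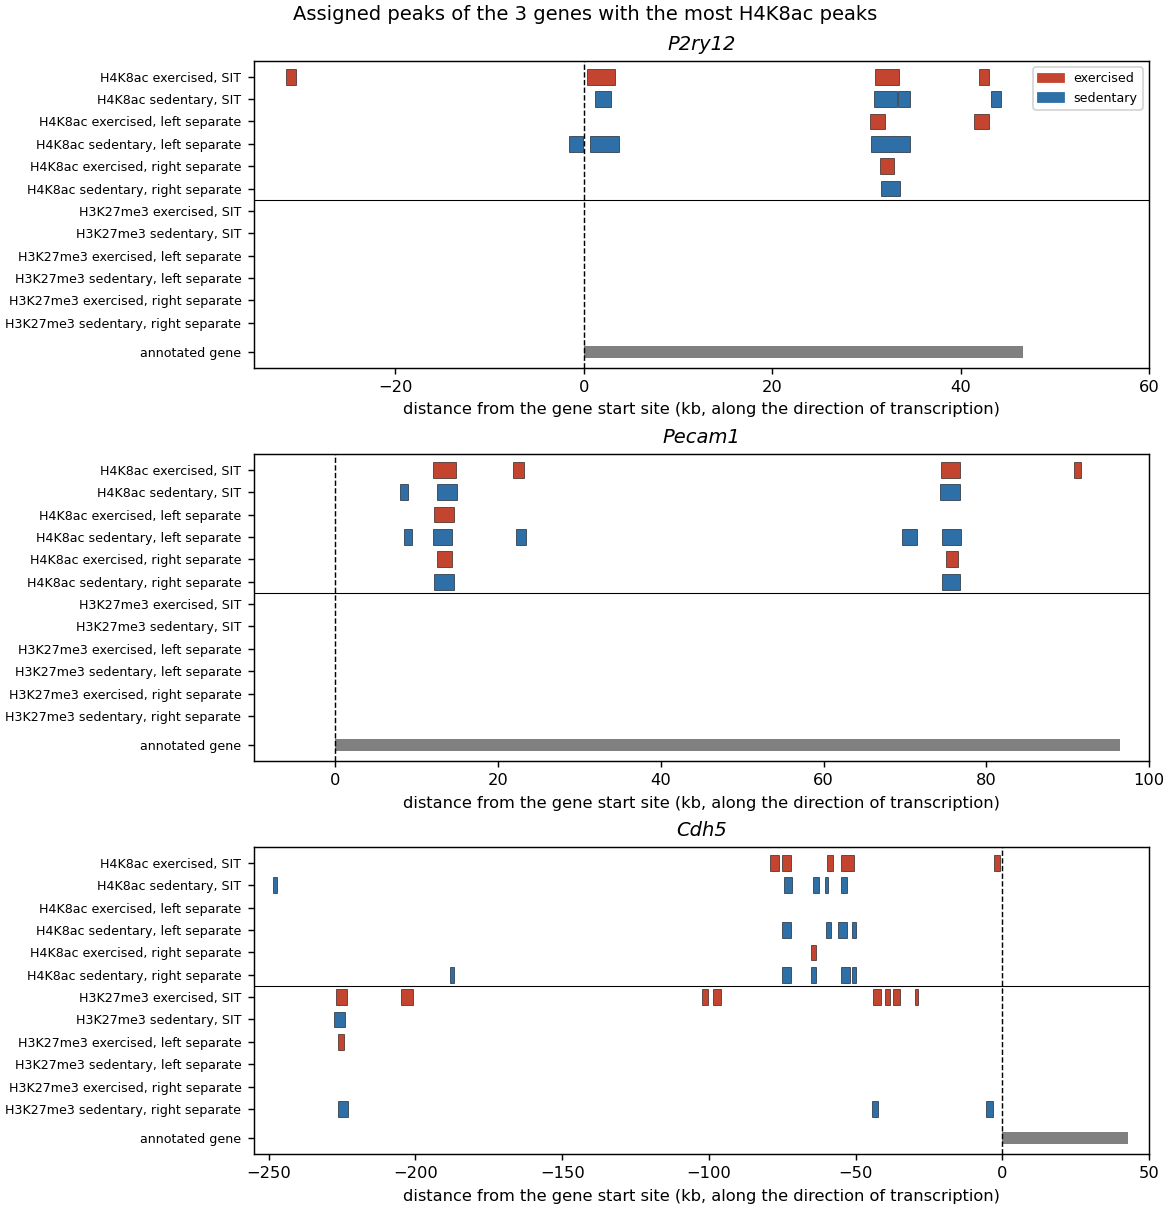
Assigned peaks of P2ry12, Pecam1 and Cdh5 as bars along the distance from the gene start site in kb, with 1 row per list, colours for condition and the annotated gene in grey. The bars of P2ry12 at about 32.5 kb and of Pecam1 at 13.5 kb appear in all 6 H4K8ac rows, and those of Cdh5 lie upstream of the gene.

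Cdh5 encodes VE-cadherin, the adhesion molecule of endothelial junctions. All but 1 of its 20 H4K8ac peaks were classed as distal intergenic, and 12 of its 13 H3K27me3 peaks were. The H4K8ac peaks gathered between 49.7 and 79.0 kb upstream of the start, with 4 in exercised SIT, 4 in sedentary SIT, 4 in sedentary left separate, 1 in exercised right separate and 4 in sedentary right separate. A region 73.3 kb upstream (chr8:104026661-104030081) was in 4 lists, with widths of 2919 to 3070 bp. No annotated gene lies there, and assignment to Cdh5 rests on its being the closest start.

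H3K27me3 around Cdh5 lay elsewhere. The region found in most lists, 4, was 225 kb upstream (chr8:103873764-103878506), and 8 of the 13 peaks came from exercised SIT alone. The narrowest distance between peaks of the 2 marks in lists of the same condition and arm was 5461 bp, in sedentary right separate. Near the gene itself there was an H4K8ac peak of 1858 bp that ended 880 bp upstream of the start in exercised SIT, and an H3K27me3 peak of 2345 bp in sedentary right separate, 3247 bp upstream, in an intron of the antisense gene Gm29682. Cdh5 (ENSMUSG00000031871, chr8:104101625-104144511, plus strand) held no peak of either mark inside its span.

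Csf1r encodes the receptor on which microglial survival depends. H4K8ac peaks were assigned to it in exercised SIT (1165 and 778 bp) and in exercised right separate (1977 bp), and in none of the sedentary lists or exercised left separate. The 1165 bp peak covered the starts of 5 of the 6 annotated transcripts, although the 5′ end of the gene lies 4801 bp upstream of it. The 778 bp peak lay within the 1977 bp peak (chr18:61107629-61109605), so this region was in both exercised lists. The 778 bp peak was at the percentile of 1.17 for width in its list. The closest H3K27me3 peak was 53.9 kb from the start.

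Aif1 encodes IBA1, a calcium-binding protein used to stain microglia. It had a single H4K8ac peak, 1915 bp wide, in sedentary right separate, classed 2 to 3 kb from a start and centred 7.47 kb downstream of the 5′ end of the gene, past its 3′ end. Peaks over the same region in exercised SIT and sedentary left separate were assigned to the neighbour Prrc2a, so the region was in 3 lists and the gene's listing in 1. Its closest H3K27me3 peak was between 18.7 and 25.4 kb from the start.

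Spi1 encodes PU.1, the transcription factor that directs macrophage and microglial identity. Its 5 H4K8ac peaks were between 889 and 1497 bp wide and fell in 3 regions, each in 1 or 2 lists. The region 8.37 kb downstream of the start was shared by exercised SIT and sedentary right separate, and another, 19.4 kb downstream, by sedentary SIT and sedentary left separate. Sedentary right separate also had the only H3K27me3 peak, 2153 bp wide, in intron 1, 2561 bp from the closest H4K8ac peak of that list. In sedentary SIT, 1 more H4K8ac peak, inside the annotated span of Spi1, was assigned to the neighbour Mybpc3, which encodes cardiac myosin-binding protein C.

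The study's question was what early-life exercise does to these marks. A gene was called gained if it was listed in the exercised but not the sedentary list of an arm, and lost in the reverse case. For H4K8ac, 2 of 30 pairs of a member and an arm were gained and 4 were lost. For H3K27me3, 3 were gained and 4 lost. The H4K8ac balance turned with the peaks accepted, to 3 gained and 1 lost with promoter peaks alone and to 3 gained and 0 lost by any transcript start inside a peak. Among the 13 pairs gained or lost, the gene was in the longer list of its arm in 12. With both conditions of an arm held to the same number of peaks, by keeping the widest, 1 was gained and 2 were lost for H4K8ac, and 1 was gained and 3 were lost for H3K27me3. The shares of all genes gained or lost were not recomputed under these other rules, so whether all genes shift likewise is not known here.

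For H4K8ac in SIT, Csf1r was gained (12.9% of all genes gained) and no member lost (4.54%). In left separate none was gained (1.45%) and Spi1 and Cdh5 were lost (21.3%). In right separate Csf1r was gained (3.24%) and Aif1 and Spi1 lost (12.7%). All 4 losses of H4K8ac fell in the separate arms, whose exercised lists were the shortest for this mark (12168 and 13715 peaks). The part of the excluded separate libraries in these losses was not tested. The gain of Csf1r in right separate was the pair that went against list length, since the exercised list there had 13715 peaks and the sedentary one 25159. Over the 3 arms of all genes, between 74.0 and 93.6% of changed genes were in the longer H4K8ac list.

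For H3K27me3 in SIT, Tek was gained (10.3% of all genes) and none lost (0.242%). In left separate Cx3cr1 and Cdh5 were gained (4.01%) and none lost (1.99%). In right separate none was gained (0.68%) and Cx3cr1, Spi1, Tek and Cdh5 were lost (10.4%). Cx3cr1, Tek and Cdh5 thus went in opposite directions in different arms, each time with list length. Between 66.8 and 97.7% of all changed genes were in the longer H3K27me3 list.

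No peak of a gained or lost pair overlapped a peak of the same mark in the other condition, whatever gene that was assigned to. By definition such a gene has no assigned peak in the other list, so little overlap could occur. The distance to the closest was smallest for Spi1 in right separate, at 18.6 kb. For Csf1r it was 52.0 kb in SIT and 28.0 kb in right separate. Of 17 pairs listed in both conditions, the exercised and sedentary peaks overlapped in 16, and the exception was Spi1 in SIT, where H4K8ac lay at different places. In 15 of the 17 pairs the total width was larger in the longer list of the arm. The exceptions were Spi1 H4K8ac in SIT and Tmem119 H3K27me3 in left separate. The matching shares over all genes were not computed for the overlaps and widths given here.

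**Figure D4:**
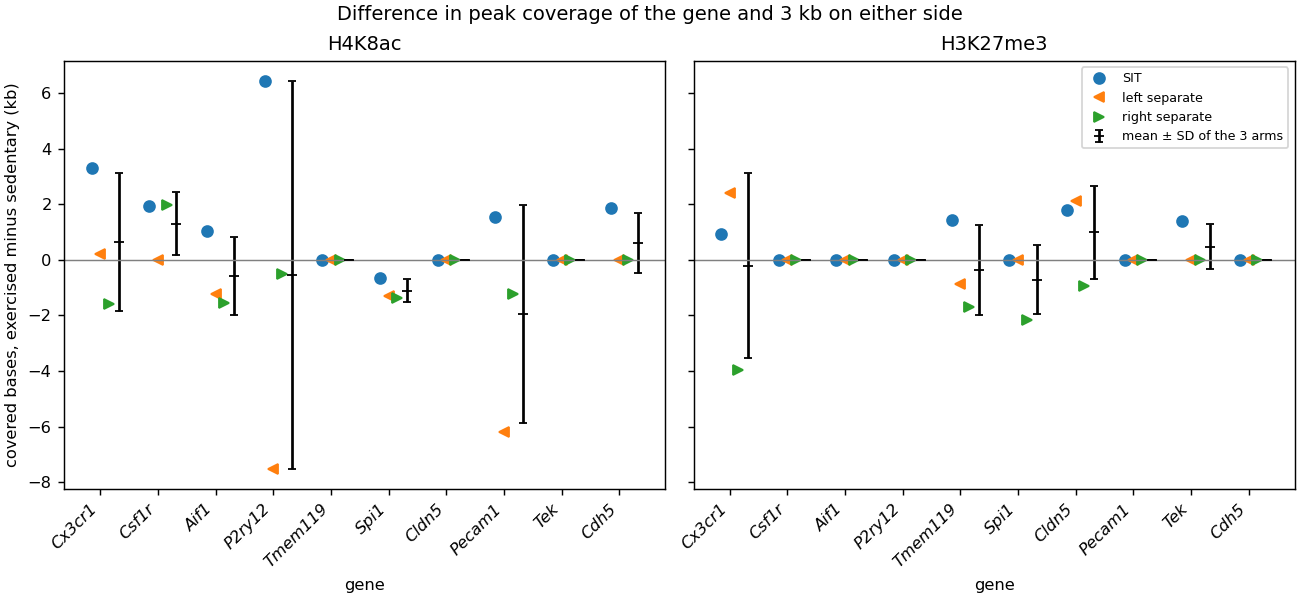
Bases of each gene and the 3 kb on either side covered by peaks of any gene, exercised minus sedentary, in kb, with 1 point per arm and the mean ± SD of the 3 arms beside them, for H4K8ac (left) and H3K27me3 (right). The arms lie on both sides of 0 for most genes with coverage, and Spi1 H4K8ac is below 0 in all 3, of which SIT turns to 342 bp above 0 when peaks assigned to Spi1 alone are counted.

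To use more than presence, covered bases of each gene with 3 kb on either side were compared between conditions over the arms, whatever gene the peaks were assigned to. With 3 arms, the smallest p that exact sign-flip permutation (two-sided) can give is 0.25, so no difference could pass 0.05. Spi1 H4K8ac, counted with peaks of any gene, differed between exercised and sedentary lists by −637 bp in SIT, −1301 bp in left separate and −1366 bp in right separate. Its mean was 499 bp in exercised and 1600 bp in sedentary lists, a mean difference of −1101 ± 403 bp (SD, 3 arms; exact sign-flip permutation p = 0.25). The direction in SIT rested on the sedentary peak assigned to Mybpc3, which lay inside the annotated span of Spi1. Without the flanks the differences were the same. With peaks assigned to Spi1 alone, counted so after seeing the data, the SIT difference was 342 bp and the mean −775 ± 968 bp (exact sign-flip permutation p = 0.50), so the arms lay on both sides of 0.

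Csf1r H4K8ac covered 1943 and 1977 bp more in the exercised list in SIT and right separate and was 0 in both lists of left separate, a mean difference of 1307 ± 1132 bp (SD, 3 arms; exact p = 0.50). Cldn5 H3K27me3 differed by 1800 bp in SIT, 2119 bp in left separate and −931 bp in right separate, a mean of 996 ± 1676 bp. The Tmem119 differences were 1442, −850 and −1702 bp. P2ry12 H4K8ac differed by 6448, −7535 and −506 bp (202, −5452 and −506 bp with peaks assigned to P2ry12 alone), and Pecam1 H4K8ac by 1562, −6206 and −1210 bp. For these 4 genes the spread between arms exceeded the mean difference.

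Wider lists of marker genes were then described in the same way. Of 20 other microglial genes, 14 had an H4K8ac peak in at least 1 list (52% of all genes), 9 an H3K27me3 peak (28.1%) and 7 both (15.2%). The start site lay in an H3K27me3 peak in at least 1 list for 5 of them (12.2% of all genes) and in an H4K8ac peak for none (26.4%). The widest H3K27me3 coverage was at Sall1, Runx1 and Irf8, transcription factor genes listed in 6 of 6 lists. The most recurrent H4K8ac was at Ptprc (6 lists), which encodes CD45, and at Laptm5 and Mertk (5 lists each).

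Of 20 other endothelial genes, 13 had H4K8ac in at least 1 list, 11 had H3K27me3 and 7 had both, beside the same 52%, 28.1% and 15.2% of all genes. The start site lay in an H3K27me3 peak for 8 of them in at least 1 list (12.2% of all genes) and for 5 in all 6 lists (4.24%), as at Cldn5. Fli1 and Sox17, transcription factor genes, and Flt1, a receptor of VEGF, were among these 5. Emcn and Erg had H4K8ac in 6 lists and Egfl7 in 5, and Erg also had H3K27me3 in 6. An H4K8ac peak covered the start site of 3 of the 20 genes in at least 1 list (26.4% of all genes).

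Among the 10 neuronal genes, the start site lay in an H4K8ac peak in at least 1 list for 3, which is close to the 26.4% of all genes. In each list between 4 and 8 of them had H4K8ac, beside 19.6 to 41.2% of all genes. For H3K27me3 the count was 1 in each list, beside 13.3 to 24.6% of all genes. The sets were not tested against each other.

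**Figure D5:**
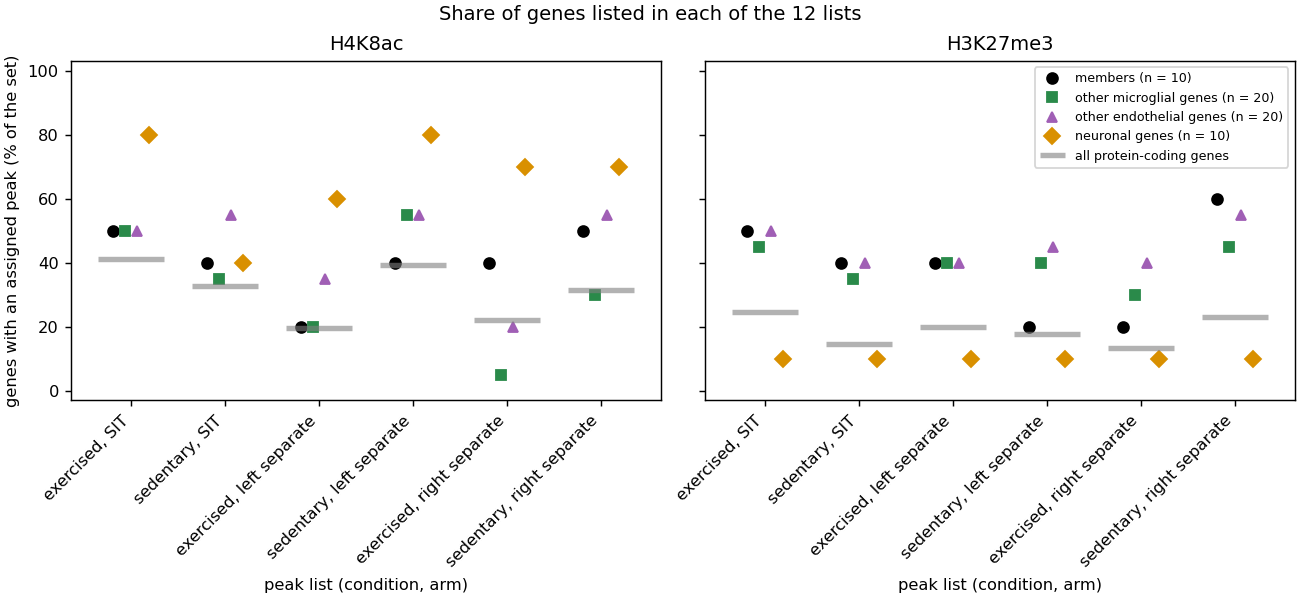
Percent of the genes of each set with an assigned peak in each list, for H4K8ac (left) and H3K27me3 (right), with grey bars for all protein-coding genes. The members lie above the grey bar in all 6 lists of each panel, in some by little (20% beside 17.7% for H3K27me3 in sedentary left separate). In the H3K27me3 panel the neuronal set is Thy1 alone, at 10% beside 13.3 to 24.6%.

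Finally, the genes whose listing was most like that of each member over the 12 lists were found, ordered by the summed difference in log2 of total peak width. Cldn5 and Tmem119 had the same status in all 12 lists, and 1094 genes had this status beside either. The closest to Cldn5 were Tmem37 and Dmkn, and the closest to Tmem119 were Esm1 and Spx. P2ry12 and Pecam1 also had the same status in 12 lists, which 1935 genes had beside either. The closest to P2ry12 were R3hdm2 and Nrp1, and the closest to Pecam1 were Parp1 and Gm1123. The pattern of Cx3cr1 was held by 68 other genes, with Rhod and Olfr374 the closest. Spi1 had 7 such genes, with Klhl13 and Cmah the closest, and Cdh5 had 5, with Rgs18 and Ube2ql1 the closest. Csf1r, Aif1 and Tek were in too few lists to be compared.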

How the data were processed

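CUT&RUN-seq, which releases DNA bound by an antibody in isolated nuclei, was analysed from the 12 deposited peak lists. Per the paper's methods, the authors checked reads with FastQC 0.11.9, aligned them to mm10 with Bowtie2 2.4.1, called peaks with SEACR (stringent, 0.01), excluded 4 exercised H4K8ac libraries with a high false discovery rate (3 of the separate isolations, hemisphere not stated, and 1 of SIT), and annotated peaks with ChIPseeker 1.8.6, each with 1 gene. How libraries were combined into a list, and whether the lists omit the excluded ones, is not given in the sources used here. The deposited peak lists hold positions and widths in bp, without counts or signal, and signal tracks and reads are not analysed here. The depth behind each list is therefore not known here, and no count test was made. Each list was treated as 1 unit of its group in the labels, and the 20 IgG samples are not analysed here. A list's lowest start can be 0, so starts may be 1 base low.

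A gene was listed with at least 1 assigned peak. Of 16994 symbols in the lists, 370 were not in GENCODE M21 (GRCm38), and 99.0% of 31151 assigned transcripts were. At most 0.564% of peaks in any list lacked a symbol. Overlap meant at least 1 bp. Covered bases were compared over the 3 arms by exact sign-flip permutation (two-sided). Interval functions and this test were checked on simulated data. The genome sequence matched the RefSeq promoters in 500 of 500 compared. Python 3.11.15, numpy 2.4.6, pandas 2.3.3 and matplotlib 3.10.9 were used.

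The members, the lists of marker genes and the tests were chosen with earlier results of these data known. The genes named were the 10 members, the 3 genes in the most lists for each other set and mark (ties by total peak width), the genes given peaks inside a member's window, the 2 genes most like each member listed in at least 3 lists, and the neuronal gene in the most lists for each mark. Med12l, P2ry13, Xirp1, Prrc2a, Mybpc3, Gm33858 and Gm29682 are neighbours named for overlap. The alternatives were promoter peaks alone, no distal intergenic peaks, at least 2 peaks, any peak within the gene or 3 kb of it, start sites in peaks, the 50% of peaks that were widest, lists cut to equal numbers within an arm, and, added after seeing the data, any transcript start in a peak, peaks within 100 kb and, for covered bases, peaks assigned to the gene alone.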

Additional observations from a re-analysis of the deposited data

Results flagged for a closer look

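At 3 genes H3K27me3 was gained in 1 arm and lost in another, and the difference between arms was not tested. The gained and the lost Tek peak lay at separate places. The total width of the peaks assigned to Cx3cr1, exercised minus sedentary, was 947 bp in SIT, 2407 bp in left separate and −3961 bp in right separate. For Cdh5 it was 16164, 2145 and −7405 bp, and for Tek 1401, 0 and −3512 bp. In each arm the longer list held the larger width, except that Tek was in neither left separate list. No group of lists was large enough to test for a list that stands apart.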

How the results depend on the processing

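No paired analysis was possible because each list pools the samples of its group, so that samples could not be matched by replicate number and conditions were matched by arm alone. For the same reason no replicate could be left out. The 6 counts of the report were repeated under 9 alternatives, and 31 of the 54 values stayed within 1.5 times the main count. With promoter peaks alone, the pairs of a member and a list with H4K8ac numbered 10 of 60, against 24 in the report, H4K8ac gains and losses were 3 and 1 (2 and 4 in the report), and H3K27me3 gains and losses were 1 and 1. With at least 2 peaks, 15 pairs had H4K8ac and 4 had H3K27me3, with 1 H4K8ac gain and 2 H3K27me3 losses. With any peak over the gene or its flanks, H4K8ac gains were 5 and H3K27me3 losses 2. With start sites inside peaks, H4K8ac had 0 pairs, 0 gains and 0 losses, and H3K27me3 had 14 pairs and 2 losses. With any transcript start inside a peak, an alternative added after seeing the data, H4K8ac had 3 pairs, 3 gains and 0 losses, and H3K27me3 had 14 pairs and 2 losses. The widest 50% of each list left 1 H4K8ac gain. Equal numbers of peaks left 1 H4K8ac gain, 2 H4K8ac losses, 1 H3K27me3 gain and 3 H3K27me3 losses. Promoter peaks alone, at least 2 peaks, the widest 50% and equal numbers keep fewer peaks by construction, and the cause of the other changes was not tested. The matching shares of all genes gained or lost were not computed under the alternatives.

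Of 20 combinations of a gene and a mark, 8 had no covered base in any list, so that only 36 of 60 repeats of the coverage differences could move. Of these, 34 moved by no more than the SD over arms, which was wide, and the Csf1r and Spi1 H4K8ac differences became 0 within 3 kb of the start site, where neither had a peak. With peaks assigned to the gene alone, an alternative added after seeing the data, the mean for Spi1 H4K8ac was −775 bp and its SIT difference changed sign. Unknown depth limits every absence: a gene without a peak was not detected in that list. Assignment to the closest start limits the values of Cdh5, Aif1 and P2ry12.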
